A study of Rattus norvegicus with 63 samples.

Results

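Methapyrilene hydrochloride (MPy), an antihistamine of the H1 type that was once sold as a sleep aid, was compared with the methylcellulose controls that the labels tie to it. The members were found from the labels alone: the 3 livers titled MPy and the 3 vehicle livers of control group 1, which is 6 of the 63 livers of the series. All animals were male rats of the Wistar Hanover strain, aged 8 to 10 weeks, and were dosed by gavage in 5 ml/kg of body weight a day. MPy was given at 60 mg/kg a day for 7 days, and the control rats (replicates 4 to 6 of the vehicle titles, called set 1 here) received methylcellulose for 14 days by their labels, although the study describes its controls as time-matched. The dose and time groups held 5 rats each, of which the study chose 3 for the arrays after looking at the histopathology, so the animals are not a random draw from each group. Total RNA of a whole piece of liver was hybridised to the Affymetrix RAE230A array, and the values are log2 intensities in which 1 unit is a doubling.

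The same 3 control livers served 5 further compounds: thioacetamide (TAA, 19.2 mg/kg, 7 days), acetamide (AA, 3000 mg/kg, 14 days), dehydroepiandrosterone (DHEA, 600 mg/kg, 14 days), methylcarbamate (Mcarb, 400 mg/kg, 14 days) and Wy-14643 (Wy, 60 mg/kg, 3 days). TAA is the only one of these given for 7 days, and the differences MPy minus TAA and MPy minus the mean of the 5 compounds do not use the control livers. If the labels hold, MPy and set 1 differ in the compound and in the days of dosing, which cannot be told apart within the pair. The sources also differ on the vehicle of MPy, methylcellulose in one place and carboxymethyl cellulose in another. Each MPy or set 1 array correlated with the others of its group at a mean r of 0.9947 to 0.995.

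MPy is a rat liver carcinogen that is not counted as genotoxic in this study, and it is known for injury to the hepatocytes around the portal tract and to their mitochondria. Cells that run short of amino acids, or whose mitochondria or endoplasmic reticulum (ER) are disturbed, phosphorylate the initiation factor eIF2alpha, which slows translation in general and raises translation of the transcription factor ATF4. ATF4 then turns on genes for amino acid synthesis and uptake, the factors Ddit3 (CHOP), Atf3 and Trib3, and in liver the hormone Fgf21, and it binds a composite element with a C/EBP partner.

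Promoters of 4 genes that rose, all from a list of ATF4 targets and ER stress genes, are shown because their upstream bases hold the core of that element. In the 250 bases before the start of each gene, as given by RefSeq on the GRCr8 assembly, the letters TGATGNAA were searched on both strands, and the match is in capitals (a match on the opposite strand appears as its reverse complement). This motif was chosen after the expression values were seen. Fgf21 lies at chr1:105221377-105221626, minus strand, Trib3 at chr3:161275534-161275783, minus strand, Nupr1 at chr1:190645902-190646151, minus strand and Chac1 at chr3:126795881-126796130, plus strand, each given as the span of the bases printed.
Fgf21: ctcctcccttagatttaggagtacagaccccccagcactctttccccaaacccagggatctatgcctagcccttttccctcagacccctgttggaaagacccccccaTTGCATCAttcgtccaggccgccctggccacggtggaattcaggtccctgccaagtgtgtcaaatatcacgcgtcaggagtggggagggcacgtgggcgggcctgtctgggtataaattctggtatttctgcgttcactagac
Trib3: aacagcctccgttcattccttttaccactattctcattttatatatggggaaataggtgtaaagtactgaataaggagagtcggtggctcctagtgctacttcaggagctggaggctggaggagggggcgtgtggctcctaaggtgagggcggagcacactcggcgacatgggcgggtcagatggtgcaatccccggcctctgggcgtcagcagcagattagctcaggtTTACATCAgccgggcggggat
Nupr1: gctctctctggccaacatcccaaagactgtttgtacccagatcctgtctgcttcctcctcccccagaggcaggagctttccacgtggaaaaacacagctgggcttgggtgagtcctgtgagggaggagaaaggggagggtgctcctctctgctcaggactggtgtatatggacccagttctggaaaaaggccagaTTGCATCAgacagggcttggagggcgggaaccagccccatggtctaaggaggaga
Chac1: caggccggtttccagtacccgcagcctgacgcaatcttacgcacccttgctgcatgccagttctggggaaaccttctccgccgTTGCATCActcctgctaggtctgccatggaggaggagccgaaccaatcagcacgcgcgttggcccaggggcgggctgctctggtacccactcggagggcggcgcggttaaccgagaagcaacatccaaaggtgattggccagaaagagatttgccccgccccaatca
The match lies 143 bases before the start in Fgf21, 21 in Trib3, 55 in Nupr1 and 167 in Chac1, and in each it is on the strand opposite to the gene. The motif was present in 899 of 27457 promoters of the same length (3.27%) and in 172 of the 8630 measured genes that have one (1.99%). Among the 14 members of the ATF4 list that rose, 13 have a promoter of this kind and 4 hold the motif, namely the genes printed. The list was made of genes already known as ATF4 targets or ER stress genes, and its members without a call were not counted. This share therefore cannot tie the motif to the rise under MPy. Among the 15 largest rises, 14 have a promoter and 3 hold TGATGNAA: Fgf21, Trib3 and Cyp4b1, which is not on that list. Among the 15 largest falls, 13 have a promoter and 1 holds it, Synrg. The core of the antioxidant response element, TGACNNNGC on either strand, was present in 12.7% of measured genes and in 1 of the 8 genes of the NRF2 list that rose and have a promoter, Gsta3. It was present in 4 of the 14 largest rises with a promoter (28.6%: Gsta3, Cyp4b1, Acot2 and Gadd45a) and in 1 of the 13 such falls, Scd. No match says only that these letters are not in this window, and a match is not a site shown to be bound. Where RefSeq lists several starts for a gene, the first was taken.

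Across the array, 1002 of 15866 probe sets passed an adjusted p of 0.05 in limma for MPy against set 1, of which 520 were higher and 482 lower. When each array was centred on its own median the split was 396 higher and 598 lower, so the balance of the directions depends on the scaling. At the level of genes, each represented by 1 probe set, 363 of 10411 (3.49%) were higher and 345 (3.31%) lower. Most changes were small: 74 probe sets passed both the test and 2-fold, and 39 passed 2.5-fold, 29 of them higher and 10 lower. The median change over all genes was 0.01 on the log2 scale. Without MPy replicate 2 the test called 652 probe sets, the lowest count with 1 array left out.

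Among the 15 genes that rose most under MPy, Gsta3, a glutathione S-transferase, rose 14.7-fold. Fgf21 rose 13.9-fold, Igfbp1, a binding protein of insulin-like growth factors, 9.93-fold, Aldh1a1, a retinal dehydrogenase, 6.96-fold, the transcription factor Egr1 6.31-fold, Cyp4b1, a cytochrome P450, 5.87-fold and Trib3, a pseudokinase, 5.26-fold. The next rises were Acot2, an acyl-CoA thioesterase (2.24 on the log2 scale), Ddit4, an inhibitor of the growth kinase mTORC1 (2.12), the cell cycle phosphatase Cdkn3 (1.86), the growth arrest gene Gadd45a (1.83), the snoRNA host RNA Gas5 (1.75), the aldehyde reductase Akr7a3 (1.73), Enc1 (1.65) and Asns (1.60). The 15 largest rises and the 15 largest falls were taken among genes whose groups did not overlap. Non-overlap by itself is common here, with 27.5% of all genes meeting it. The call for Cdkn3 was lost without MPy replicate 2 (adjusted p = 0.055) or control replicate 5 (adjusted p = 0.0547), and the other 14 rises kept their calls without any 1 of the 6 arrays.

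In the list of ATF4 targets and ER stress genes, 51 genes were measured, of which 14 were called higher and 6 lower. Over all genes 3.49% were called higher and 3.31% lower, and these shares apply to every list count against set 1 below. The median change of the list was 0.04, beside 0.01 over all genes, and its members moved in both directions. Fgf21, the hormone of the fasting and stress response, stood at log2 levels of 11.28, 11.19 and 10.75 in the MPy rats and at 7.19, 7.40 and 7.22 in the controls. No control rat came near an MPy rat, and the difference was 3.80 ± 0.32 (SE; adjusted p = 2.09e-12). Trib3, which binds the kinase AKT and is a target of ATF4 and CHOP, read 10.32, 10.53 and 10.88 under MPy against 7.92, 8.07 and 8.56, a rise of 2.39 ± 0.19 on its brightest probe set. The other probe sets of Trib3 gave 3.42 and 3.21, so its rise differs by about 1 log2 unit with the probe set.

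Several enzymes of amino acid synthesis were among the members that rose. Asns, asparagine synthetase, read 7.79, 7.87 and 7.73 against 6.04, 6.12 and 6.43 (1.60 ± 0.19, adjusted p = 5.13e-08). Phgdh, the first enzyme of serine synthesis, read 8.40, 8.28 and 7.51 against 6.39, 6.55 and 6.57 (1.56 ± 0.19), and Psat1, the next enzyme of that pathway, rose by 1.2 ± 0.23. MPy replicate 3 was the lowest of its group for Phgdh and Psat1 but still lay above every control. Sars1, the seryl-tRNA synthetase (0.61 ± 0.12), and the subunits of an amino acid transporter, Slc3a2 (0.84 ± 0.15) and Slc7a5 (0.44 ± 0.13), also rose. Slc7a5 lost its call without MPy replicate 2 or 3 (adjusted p = 0.0593 and 0.185) or without control replicate 5 or 6 (adjusted p = 0.086 and 0.172).

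Transcription factors and effectors known to lie downstream of ATF4 were the other members called higher, with Vldlr (0.31 ± 0.08). Nupr1, a stress-induced chromatin protein, read 10.30, 9.88 and 10.49 against 8.50, 9.46 and 8.54, so that control replicate 5 came close to MPy replicate 2 (1.39 ± 0.34, adjusted p = 0.00539). Ddit3 rose by 0.92 ± 0.19 and Atf3 by 0.87 ± 0.09, with 6.39, 6.39 and 6.44 against 5.47, 5.63 and 5.53 for Atf3. Chac1, which degrades glutathione, rose by 0.81 ± 0.13, and the cytokine Gdf15 by 0.61 ± 0.15. Gdf15 lost its call without control replicate 4 (adjusted p = 0.0988) and Vldlr without MPy replicate 2 (adjusted p = 0.0565) or control replicate 4 (adjusted p = 0.0615). The mRNAs of Atf4 (0.31 ± 0.17, adjusted p = 0.379) and Atf5 (0.41 ± 0.21, adjusted p = 0.331) did not pass the test, although ATF4 is controlled mainly at translation. The count of 14 called higher stayed between 12 and 14 when any 1 array was left out and between 13 and 17 with another methylcellulose set as the control.

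**Figure D1:**
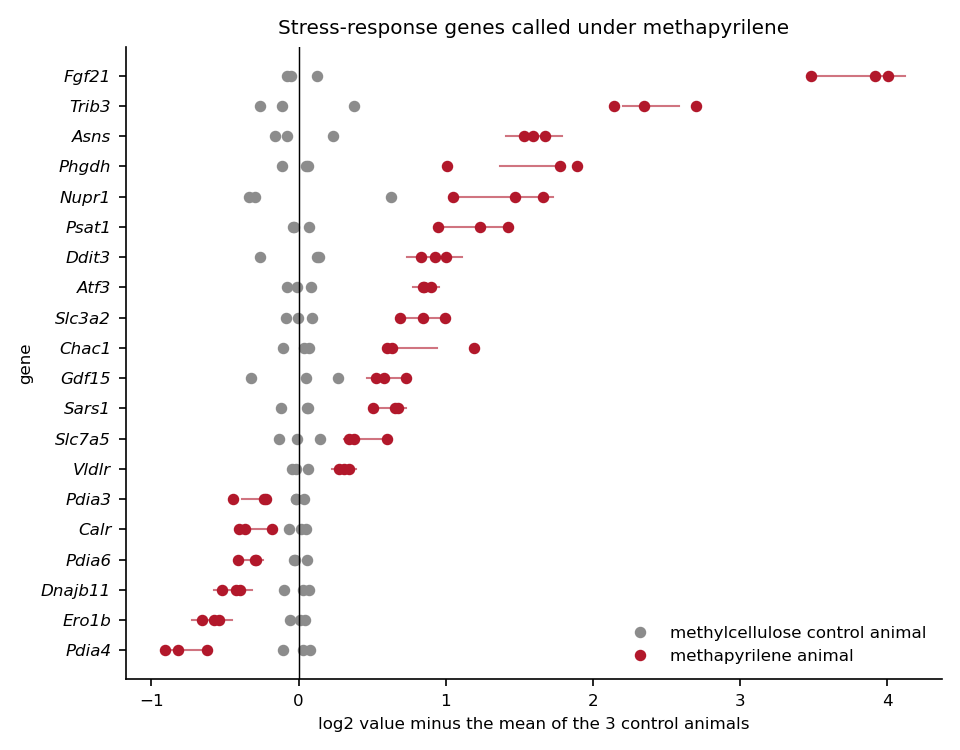
Log2 value of each animal minus the mean of the 3 control animals (x axis) for the 20 called members of the ATF4 and ER stress list (y axis); grey points are control animals, red points MPy animals, and the red line spans the estimated change plus and minus its SE. The 14 genes at the top, from Fgf21 to Vldlr, lie to the right of every control animal and the 6 at the bottom, from Pdia3 to Pdia4, to the left.

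The 6 members that were lower all encode proteins that fold or oxidise other proteins in the ER lumen. Pdia4, a protein disulfide isomerase, read 10.97, 10.68 and 10.77 under MPy against 11.62, 11.67 and 11.49 and fell by 0.78 on the log2 scale (SE 0.14, adjusted p = 0.000115). Ero1b, the oxidase that recharges such isomerases, fell by 0.59, the co-chaperone Dnajb11 by 0.45, Pdia6 by 0.33, the lectin chaperone Calr by 0.32 and Pdia3 by 0.30. Hspa5 (BiP), the main chaperone of the ER, changed by -0.34 ± 0.13 and missed the test (adjusted p = 0.127), and Xbp1 changed by -0.06 ± 0.23. Calr lost its call without any 1 array but MPy replicate 1 (adjusted p from 0.0715 to 0.202). Dnajb11 lost it without MPy replicates 1 and 2 or control replicates 4 and 5 (from 0.0565 to 0.113). Pdia3 and Pdia6 lost it without MPy replicate 3 (0.165 and 0.0919) or control replicate 5 (0.0719 and 0.0739). Hspa5 and Xbp1 are named here after their values were seen. The count of 6 was 4 without MPy replicate 2 or control replicate 4, 3 without MPy replicate 3 and 2 without control replicate 5, and it was 3 with set 2 or set 6 as the control and 9 with set 5. TAA against set 1 called 5 of the 51 genes of the whole list lower and 2 higher, with a median of -0.06. Of all genes, 3.68% were called lower and 3.6% higher under TAA.

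Of 38 measured genes of mitochondrial import, folding, proteolysis and translation, 7 were called higher and 1 lower, and the median change was 0.12. Hspa9 (mortalin), the HSP70 of the matrix, read 12.01, 12.02 and 12.12 against 11.39, 11.43 and 11.37 (0.65 ± 0.10, adjusted p = 1.47e-05), and its other probe sets gave 0.79 and 0.35. The matrix protease Lonp1 read 10.96, 11.01 and 11.01 against 10.47, 10.36 and 10.47 (0.56 ± 0.09), although a second, dim probe set of Lonp1 gave 0.08. Tomm40, the channel of the outer membrane, rose by 0.41 ± 0.09 and Phb2 by 0.26 ± 0.07, whereas Clpx, the unfoldase partner of the Clpp protease, fell by 0.39. Clpp itself was called higher (adjusted p = 0.0363). With 1 array left out its call was kept only without MPy replicate 3 (0.32, adjusted p = 0.0494), with adjusted p from 0.0676 to 0.131 in the other fits. Phb2 lost its call without control replicate 6 (adjusted p = 0.0563). The count of 7 was 4 without MPy replicate 1 and 3 without control replicate 6, and 4 with each array centred on its median. In contrast, of 68 measured subunits of oxidative phosphorylation none was called higher and 2 were lower, Ndufv3 and Sdha, with a median of 0.01. The 2 lower are 2.94% of these subunits, near the 3.31% of all genes. Sdha lost its call without MPy replicate 3 (-0.24, adjusted p = 0.0627). The 38 genes of mitochondrial import, folding, proteolysis and translation also moved under TAA. TAA against set 1 called 8 of them higher and none lower (median 0.11), where 3.6% of all genes were higher. MPy against TAA called 1 of the 38 higher and none lower, with a median of -0.01, where 1.44% of all genes were higher.

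Of 46 measured immediate early and growth signal genes, 8 were called higher and 2 lower, with a median of 0.05. Igfbp1 read 11.14, 11.61 and 11.77 against 8.44, 7.76 and 8.38 (3.31 ± 0.48, adjusted p = 4.16e-06), and Egr1 read 10.27, 10.31 and 10.73 against 8.17, 7.26 and 7.89 (2.66 ± 0.40). Both genes separated the groups by more than the whole spread among the controls. Klf6, a transcription factor of liver injury, rose by 0.81 ± 0.17 and Odc1, the first enzyme of polyamine synthesis, by 0.85 ± 0.14. Myc rose by 1.29 ± 0.36, but its call was lost without MPy replicate 1 (1.16, adjusted p = 0.098), MPy replicate 3 (1.31, adjusted p = 0.0534), control replicate 5 (1.08, adjusted p = 0.129) or control replicate 6 (1.18, adjusted p = 0.0934). Ddit4 read 9.75, 9.43 and 8.75 against 6.86, 7.16 and 7.56 and Gadd45a 9.47, 8.95 and 9.19 against 7.98, 7.15 and 6.99. Gadd45a missed the test with set 6 as the control. The count of 8 was 5 without MPy replicate 3, and the 2 lower were 0 without MPy replicate 2, MPy replicate 3 or control replicate 4 and 1 without any other array.

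**Figure D2:**
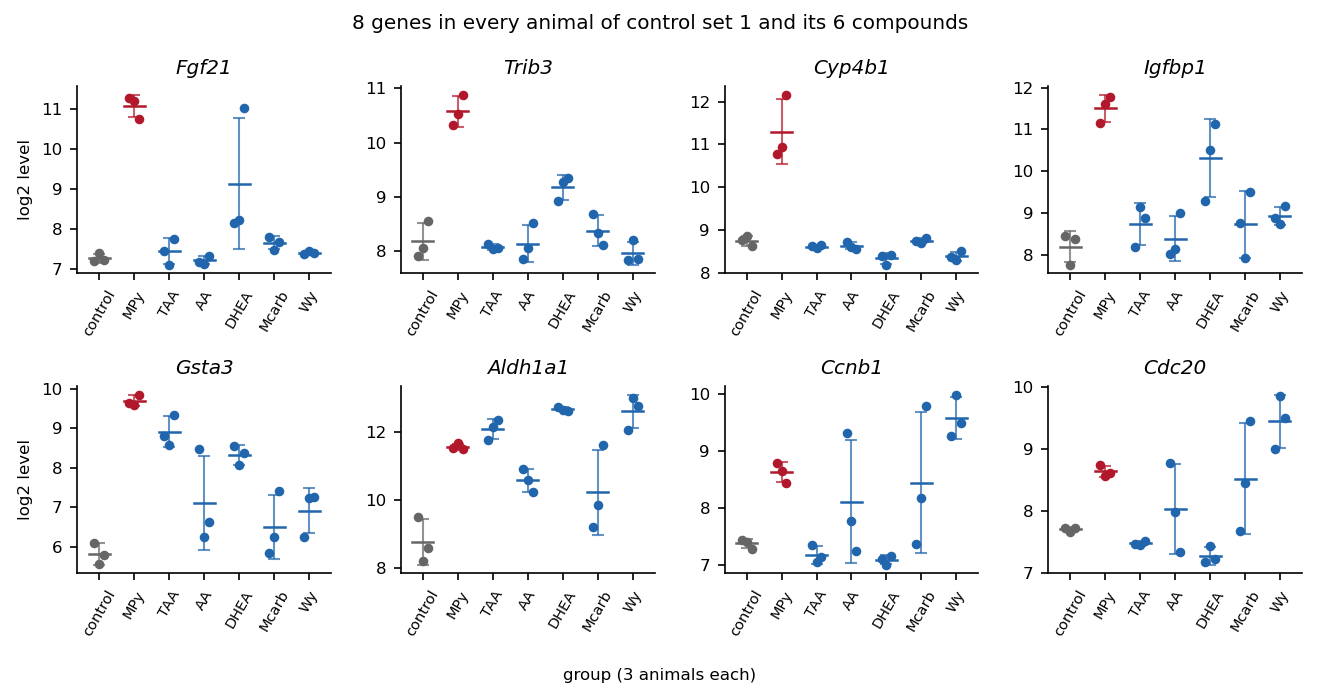
Log2 level (y axes, scaled per gene) of 8 genes in each of the 3 animals of set 1 (grey), MPy (red) and the 5 other compounds that share set 1 (blue); the horizontal bar is the group mean and the whisker its SD. Fgf21, Trib3 and Cyp4b1 are higher in MPy rats than in most other rats, with DHEA replicate 3 near the MPy rats for Fgf21, whereas Aldh1a1 is also high under TAA, DHEA and Wy and Ccnb1 and Cdc20 reach higher levels under Wy.

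Cyp4b1 had the largest rise among the measured genes of the cytochrome P450 list, the enzymes that oxidise drugs, steroids and fatty acids. It read 10.77, 10.95 and 12.16 under MPy against 8.76, 8.85 and 8.62, a rise of 2.55 ± 0.17 (adjusted p = 5.47e-16), and MPy replicate 3 was the highest. That SE is set by the spread over all 21 groups of the fit, whereas the SD among the 3 MPy rats was 0.76. In the 15 livers of the 5 other compounds Cyp4b1 lay between 8.18 and 8.81. Of 40 measured P450 genes of families 1 to 4, 3 were called higher and 7 lower, with a median of -0.09, where 3.49% of all genes were higher and 3.31% lower. Cyp4f4 fell by 0.83 and Cyp2d3 by 0.67. The abundant drug-metabolising forms gave values without a call: Cyp1a2 changed by -0.07 ± 0.29, Cyp3a2 by -0.03 ± 0.15, Cyp2e1 by 0.29 ± 0.13 and the male form Cyp2c11 by -0.39 ± 0.14 (adjusted p = 0.0801). The steroid hydroxylase Cyp2c12, typical of female rats, read 10.17, 10.82 and 10.51 against 8.88, 9.15 and 9.11 (1.45 ± 0.42, adjusted p = 0.0273), and close relatives of the 2C family can share probe signal. Its call was kept only without MPy replicate 1 among the arrays left out, with adjusted p of 0.137 without MPy replicate 2, 0.0753 without MPy replicate 3 and 0.104, 0.0582 and 0.0668 without control replicates 4, 5 and 6. The 7 lower genes were 4 without MPy replicate 1 or control replicate 4, and the 3 higher genes were 1 without MPy replicate 2.

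Of 42 measured detoxification genes under the oxidant sensor NRF2, 10 were called higher and none lower, and the median change was 0.26. Gsta3 read 9.65, 9.59 and 9.86 against 6.11, 5.57 and 5.79 (3.88 ± 0.46, adjusted p = 3.94e-08), and alpha-class transferases are similar enough in sequence that the probe set may read more than 1 of them. Aldh1a1 read 11.54, 11.67 and 11.50 against 9.51, 8.21 and 8.60 (2.80 ± 0.46). Akr7a3, which reduces aflatoxin dialdehyde, read 12.59, 13.07 and 12.61 against 10.98, 10.85 and 11.24 (1.73 ± 0.26). Epoxide hydrolase Ephx1 rose by 0.92 ± 0.14 and the export pump Abcc3 by 1.09 ± 0.21. Other well-known targets had no call: Nqo1 read 10.18, 10.14 and 10.84 against 8.20, 9.58 and 10.55, Hmox1 changed by 0.09 ± 0.18, Gclc by 0.31 ± 0.20 and Gclm by -0.19 ± 0.19, genes named here after their values were seen. For TAA against the same control rats, 19 members were called higher, where 3.6% of all genes were, with a median of 0.43. The MPy count of 10 was 5 without control replicate 5 and lay between 7 and 10 without any other array.

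Of 47 measured cell cycle and DNA replication genes 44 had a higher mean under MPy. The median change was 0.35, beside 0.01 over all genes. Of the 47, 10 were called higher and none lower, where 3.49% of all genes were higher. The called genes act mainly in mitosis. Ccnb1, cyclin B1, read 8.78, 8.65 and 8.44 against 7.44, 7.41 and 7.29 (1.24 ± 0.30, adjusted p = 0.00622), and Cdc20, an activator of the anaphase-promoting complex, read 8.74, 8.56 and 8.62 against 7.73, 7.66 and 7.72 (0.94 ± 0.23). Neither group overlapped the other in these genes, and the SE is set by the spread over all 21 groups of the fit. Mki67, the proliferation marker, rose by 0.92 ± 0.28, a call lost without any 1 of the 6 arrays (adjusted p from 0.0551 to 0.135), and Stmn1, which destabilises microtubules, by 1.34 ± 0.35, a call lost without MPy replicate 1 (adjusted p = 0.0567). Ccnb2 rose by 1.30 ± 0.39, and its call was lost without any 1 of the 6 arrays. Cdk1 changed by 0.78 ± 0.34 and was not called, a gene named after its value was seen. The count of 10 was 5 without MPy replicate 1 or control replicate 4, 4 without MPy replicate 3, 6 without control replicate 6 and 22 when the 12 methylcellulose livers were pooled.

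**Figure D3:**
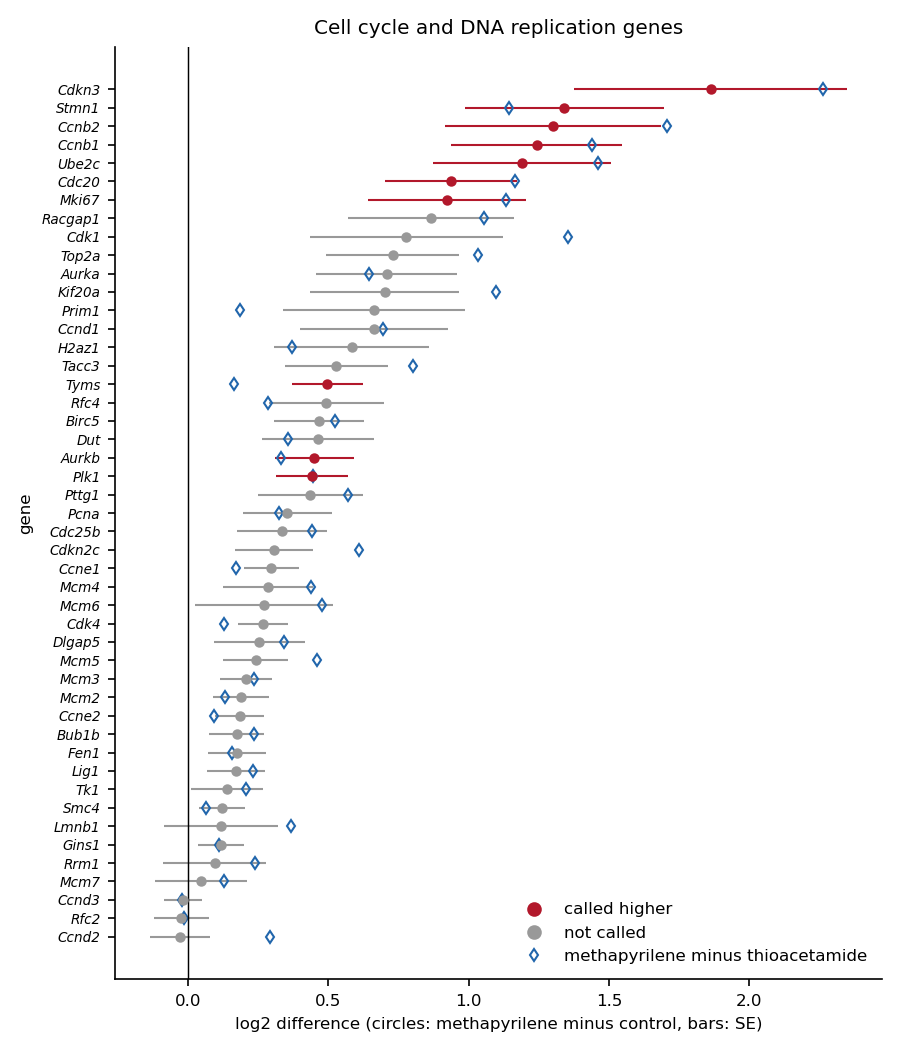
Log2 difference (x axis) of the 47 measured cell cycle and DNA replication genes (y axis): circles with SE bars give MPy minus set 1, red where called, and open diamonds give MPy minus TAA. The circles of 44 genes lie to the right of 0, and the called genes with the largest changes (Cdkn3, Stmn1, Ccnb2, Ccnb1) lie between 1.24 and 1.86.

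Of 40 measured nucleolar and ribosome biogenesis genes 7 were called higher and none lower, with a median of 0.23 (3.49% of all genes were called higher). Nop56, a snoRNP protein, rose by 0.45 ± 0.08 and Nhp2 by 0.64 ± 0.15. Outside this list, Gas5 read 8.89, 8.96 and 9.39 against 7.44, 7.24 and 7.29 (1.75 ± 0.17, adjusted p = 1.32e-10). Rplp0, a ribosomal stalk protein often used as a reference gene, read 12.79, 12.93 and 12.77 against 12.03, 12.10 and 12.03 and rose by 0.78 ± 0.09 (adjusted p = 1.18e-08). The count of 7 was 3 without MPy replicate 1 or control replicate 5, and 4 without MPy replicate 3. Of 37 measured heat shock proteins and chaperones 5 were called higher, with a median of 0.05. Among them was Cct8 of the cytosolic chaperonin (0.35 ± 0.09, a call lost without control replicate 4 at an adjusted p of 0.0544). This count was 2 without MPy replicate 1, MPy replicate 3, control replicate 4 or control replicate 6, 3 without control replicate 5 and 2 with median centring. TAA against set 1 called 10 of the 40 nucleolar genes higher and none lower (median 0.20), where 3.6% of all genes were higher. It called 6 of the 37 heat shock genes higher and none lower (median 0.23). MPy against TAA called 1 of the 40 nucleolar genes lower and none higher, and none of the 37 heat shock genes.

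**Figure D4:**
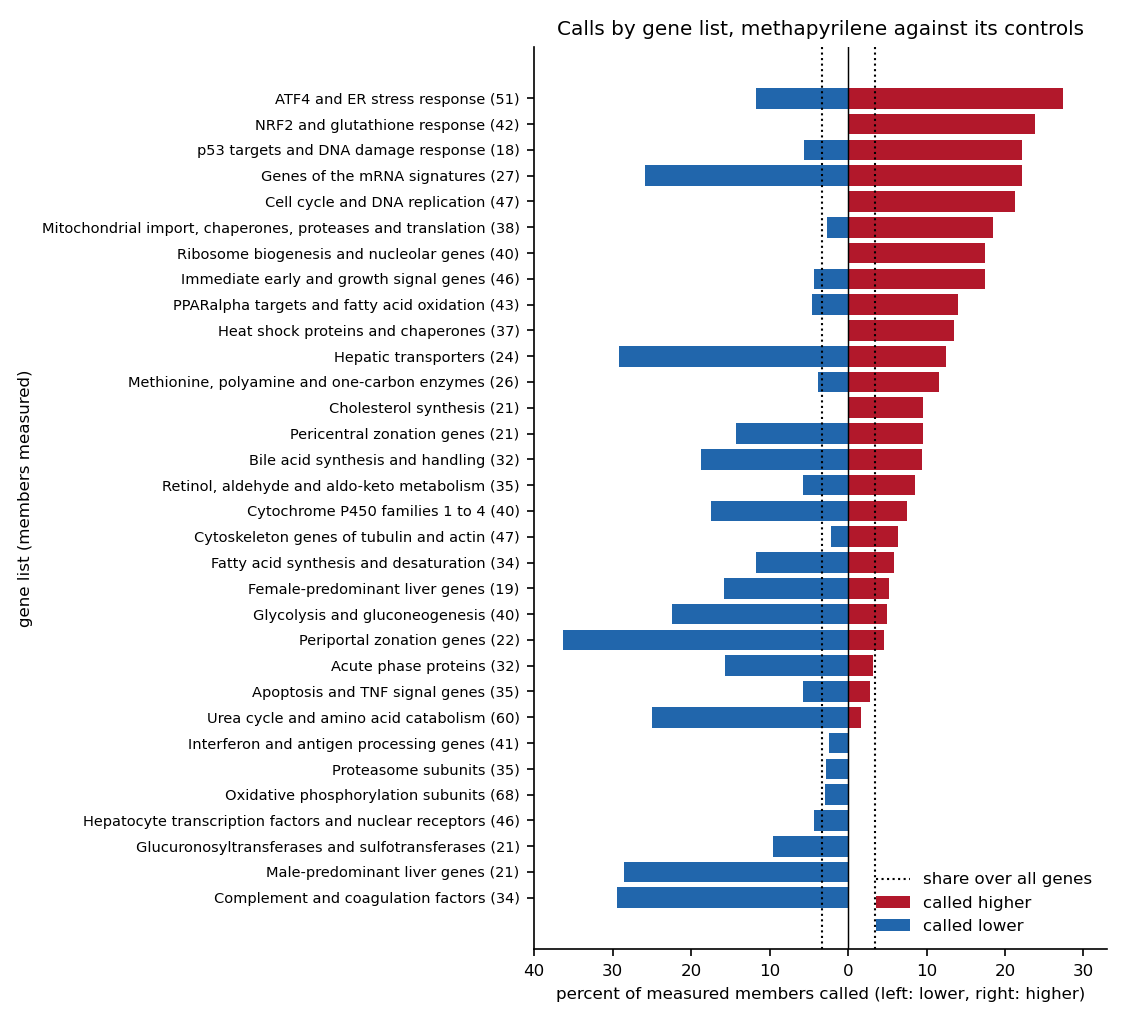
Percent of the measured members of each gene list (y axis, number measured in brackets) that were called lower (blue, to the left) or higher (red, to the right) under MPy, with dotted lines at the shares over all genes (3.31% and 3.49%). The ATF4, NRF2 and cell cycle lists are among those with the longest red bars, and the periportal, complement, transporter and male-predominant lists among those with the longest blue bars.

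Among the 15 genes that fell most, Scd, Apoa4 and Pklr came first. Scd, the stearoyl-CoA desaturase that makes monounsaturated fat, read 9.65, 11.54 and 11.11 under MPy against 13.23, 13.41 and 12.76 and fell by 2.37 (SE 0.67, adjusted p = 0.0222). MPy replicate 1 was far below the other MPy rats, and the call was lost without it (-1.81, adjusted p = 0.185), without control replicate 4 (adjusted p = 0.0752) or without control replicate 5 (adjusted p = 0.0856). Apoa4, an apolipoprotein of triglyceride-rich particles, read 10.18, 10.23 and 9.34 against 12.37, 12.02 and 12.32 and fell by 2.32 (SE 0.44, adjusted p = 0.000266). Pklr, liver pyruvate kinase, read 9.69, 10.09 and 9.74 against 11.36, 11.59 and 11.20 and fell by 1.55 (SE 0.26), and its second probe set gave -1.52. Against the mean of the 5 other compounds in limma, Scd differed by -1.71 (adjusted p = 0.0439), Apoa4 by -0.28 (0.769) and Pklr by -0.42 (0.286). Relative to set 1, Apoa4 stood at -3.91 under DHEA and -2.83 under Wy, with no call under TAA, AA or Mcarb. Pklr stood at -1.82, -1.39, -1.15 and -1.08 under DHEA, Wy, AA and Mcarb, all called, and at -0.18 under TAA with no call.

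Of 40 measured genes of glycolysis and gluconeogenesis 2 were called higher and 9 lower, with a median of -0.10. The members that fell handle fructose, pyruvate and glycogen: ketohexokinase Khk read 10.64, 10.54 and 10.57 against 11.26, 11.15 and 11.20 (down by 0.62 with SE 0.10), pyruvate carboxylase Pc fell by 0.66, the pyruvate dehydrogenase kinase Pdk1 by 0.73 and glycogen phosphorylase Pygl by 0.57. Tkfc, which acts after Khk in fructose breakdown, fell by 1.05. Pck2, the mitochondrial form of the gluconeogenic carboxykinase and a known ATF4 target, rose by 0.62 ± 0.13. Of 34 genes of fatty acid synthesis and desaturation 2 were called higher and 4 lower, with a median of -0.21. The 4 lower genes were 2 without MPy replicate 1 or 2 and 1 without control replicate 4 or 5. Fabp2, a fatty acid binding protein, rose by 0.83 ± 0.16.

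Of 60 measured genes of the urea cycle and amino acid catabolism 15 were called lower and 1 higher, 47 had a lower mean, and the median was -0.18. Proline dehydrogenase Prodh read 10.34, 10.20 and 10.20 against 11.05, 11.17 and 11.06 and fell by 0.85 (SE 0.19, adjusted p = 0.00336). Isovaleryl-CoA dehydrogenase Ivd fell by 0.58, the folate enzyme Ftcd by 0.51 and ornithine transcarbamylase Otc, of the urea cycle, by 0.49. Serine dehydratase Sds read 7.81, 7.60 and 8.06 against 8.79, 9.42 and 9.71 and fell by 1.48, a call lost without MPy replicate 2 (-1.37, adjusted p = 0.0668) or control replicate 6 (-1.28, adjusted p = 0.0889). The count of 15 was 6 without MPy replicate 2 and 9 without control replicate 4. For TAA against the same control rats, 11 of the 60 genes were called lower, where 3.68% of all genes were.

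Of 34 measured complement and coagulation factors none was called higher and 10 were lower, with a median of -0.15. The complement factor C9 fell by 0.51, coagulation factor F10 by 0.47, protein C (Proc) by 0.47 and the C1 inhibitor Serping1 by 0.46, each with an SE of 0.07 to 0.09. The count of 10 was 6 without MPy replicate 2, control replicate 4 or control replicate 6. Of 24 hepatic transporters 3 were called higher and 7 lower. The uptake carriers of bile acids and organic anions were among the lower ones: Slc10a1 (NTCP) read 11.35, 11.30 and 11.27 against 12.01, 12.00 and 12.16 and fell by 0.75 (SE 0.13, adjusted p = 6.43e-05), and Slco1a1 fell by 0.66. The export pumps Abcc3, Abcc2 (0.66 ± 0.17) and Abcb1a (0.81 ± 0.18) were the 3 higher ones. Abcc2 lost its call without control replicate 5 (adjusted p = 0.0706) and Abcb1a without MPy replicate 3 (0.52, adjusted p = 0.0825) or control replicate 4 (adjusted p = 0.0556). Of the 34 complement and coagulation factors, TAA against set 1 called 8 lower and none higher (median -0.19), where 3.68% of all genes were lower. MPy against TAA called 2 of the 34 lower and none higher, with a median of 0.003, where 0.951% of all genes were lower.

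Of 22 measured genes known for periportal expression, the zone where MPy is known to injure, 8 were called lower and 1 higher, with a median of -0.14, and of 21 pericentral genes 3 were lower and 2 higher, with a median of 0.06. Beside a median of 0.01 and a share of 3.31% called lower over all genes, 21 genes that are higher in male than female rat liver had a median of -0.28. Of these 20 had a lower mean, 6 were called lower and none higher. Beside Scd and Slco1a1 these included the sulfotransferase Sult1c3 (down by 0.69) and the hydroxyacid oxidase Hao2, which read 11.50, 11.55 and 10.82 against 12.63, 12.13 and 12.63 (down by 1.17, with the call lost without MPy replicate 3 at -0.94 and an adjusted p of 0.0842). Of 19 measured genes that are higher in female rat liver, 1 was called higher and 3 lower, with a median of -0.05. TAA against set 1 called 3 of the 21 male-predominant genes lower and none higher (median -0.19), where 3.68% of all genes were lower. MPy against TAA called 1 of these 21 higher and none lower, where 1.44% of all genes were higher. The periportal count of 8 was 5 without MPy replicate 2. Of the pericentral counts, the 3 lower were 1 without MPy replicate 2 or any 1 control array, and the 2 higher were 1 without MPy replicate 1 or 2 or control replicate 4 or 5. In bulk liver, fewer cells of a kind and less RNA in each cell cannot be told apart.

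Of 43 measured PPARalpha targets and fatty acid oxidation genes 6 were called higher and 2 lower, with a median of 0.10, where 3.49% of all genes were higher and 3.31% lower. The 2 lower genes were 1 without MPy replicate 2, control replicate 4 or control replicate 6. Beside Fgf21 the genes called higher included the thioesterases Acot2 (7.85, 7.56 and 7.77 against 5.80, 5.46 and 5.20) and Acot1 (1.10 ± 0.24) and the trifunctional protein subunit Hadhb (0.64 ± 0.10). Against the mean of the 5 other compounds, which include the PPARalpha agonist Wy and DHEA, 28 of the 43 were lower under MPy, where 2.76% of all genes were. Acot1 differed by -1.80 in that comparison and Ehhadh by -1.12. Against TAA alone, 9 of the 43 were higher under MPy and 1 lower, with a median of 0.20. Of all genes 1.44% were higher and 0.951% lower against TAA.

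Cell type markers were checked in the same fit, where 3.49% of all genes were called higher and 3.31% lower. Of 10 housekeeping and RNA quality genes checked with them, 1 was called higher, Rplp0, and 1 lower, Sdha. The mean level of these 10 genes ranged from 10.81 to 10.91 under MPy and from 10.66 to 10.78 in the controls. Hepatocyte markers showed that the tissue was liver, with Alb at 15.02, 15.03 and 15.07 under MPy and 15.06, 15.05 and 14.97 in the controls. Of 19 hepatocyte markers 3 were called lower, among them the asialoglycoprotein receptor Asgr1 (down by 0.61), and their mean level ranged from 12.76 to 12.84 under MPy and was 12.83 in each control. The count of 3 was 1 without MPy replicate 2 or MPy replicate 3 and 6 with median centring. The lower receptor and secreted protein genes above are hepatocyte genes, and what part a change in hepatocyte number had in them was not tested. Of 23 biliary and progenitor markers 2 were called higher, Epcam (9.37, 9.22 and 8.88 against 8.45, 7.30 and 8.29; 1.14 ± 0.24) and Krt18 (0.51 ± 0.15), while the biliary keratin Krt19 (-0.13 ± 0.27), Spp1 (-0.15 ± 0.12) and Afp (-0.15 ± 0.18) had no call. The mean level of these 23 markers ranged from 7.80 to 7.95 under MPy and from 7.71 to 7.76 in the controls. Epcam lost its call without control replicate 5 (0.78, adjusted p = 0.051). Krt18 lost its call without MPy replicate 1 (0.39, adjusted p = 0.182), MPy replicate 2 (adjusted p = 0.127) or control replicates 5 and 6 (adjusted p = 0.15 and 0.0625).

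None of the 90 measured markers of macrophages, lymphocytes, neutrophils, mast cells, erythroid cells and pancreatic acinar cells was called in limma, and 3 of them had an unadjusted p under 0.05. This holds for set 1 as the control. With set 2 as the control 6 of the 23 macrophage markers were called higher, with set 5 it was 8 and with the 12 livers pooled 2, and with set 5 it was 3 of the 22 lymphocyte markers, with 1 lower. The other 4 lists gave 0 to 1 calls in each direction with these controls, and 1 mast cell and eosinophil marker was called higher without MPy replicate 1 or 2. The marker level of macrophages ranged from 8.59 to 8.81 under MPy and from 8.53 to 8.69 in the controls, as a mean log2 level over 23 genes, and that of lymphocytes from 6.32 to 6.37 and from 6.27 to 6.38 over 22 genes. Of 48 stellate cell and matrix markers none was called higher and 2 were lower (4.17%, near the 3.31% of all genes), Vim (down by 0.81) and Col14a1 (down by 0.45). With set 2, 5 or 6 as the control, 5, 6 and 8 stellate markers were called higher and 0, 1 and 0 lower. With the 12 livers pooled, 5 were called higher and 0 lower. Col14a1 lost its call without MPy replicate 2 (adjusted p = 0.178), control replicate 4 (0.107) or control replicate 6 (0.103). Of 17 endothelial markers 1 was lower, Tie1 (-0.27), which is 5.88% beside 3.31% of all genes. The Tie1 call was lost without MPy replicates 1, 2 and 3 (adjusted p = 0.096, 0.0551 and 0.0833) or control replicate 4 (0.164), with the direction turned against set 5 or 6. Stromal markers also differed between control sets: in set 1 against sets 2, 5 and 6, fitted with all arrays, 12 of the 48 stellate markers were higher, where 0.855% of all genes were higher and 0.624% lower, and Vim was 0.83 higher in set 1 (adjusted p = 0.00275). On those 12 arrays alone 2 of the 48 were higher (Vim at an adjusted p of 0.0435), and the count was 1 without control replicate 4 (Vim at 0.0729), 2 without control replicate 6 and 5 without MC_set5 replicate 9.

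The 27 measured genes of the study's own mRNA signatures were chosen by the study on these samples among others, so their calls are not independent evidence. Under MPy 6 were higher (Aldh1a1, Akr7a3, Myc, Abcc3, Ephx1 and Abcb1a) and 7 lower (Scd, Apoa4, Pklr, Abcc9, Mtmr7, Dmxl2 and Spink1). Mtmr7, a lipid phosphatase, read 6.51, 6.85 and 7.24 against 8.09, 8.76 and 7.60 and fell by 1.29 (SE 0.23). Cdkn1a changed by 0.74 and missed the test (adjusted p = 0.0887). Of 18 p53 targets and DNA damage genes 4 were higher (Gadd45a, Atf3, Ccng1 and Apex1) and 1 lower (Xpc), where 3.49% of all genes were higher and 3.31% lower. Ccng1 lost its call without MPy replicate 3 (0.45, adjusted p = 0.122) or control replicate 4 (adjusted p = 0.0635). Xpc lost its call without MPy replicate 1 (-0.60, adjusted p = 0.0755) or control replicate 5 (-0.53, adjusted p = 0.129), and was not called with set 2, 5 or 6 as the control.

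Against TAA, the 7-day compound of the same control set, 335 probe sets differed in limma, 213 higher and 122 lower under MPy, and 155 against 168 with median centring. Of all genes 1.44% were higher and 0.951% lower, whereas 11 of the 51 ATF4 and ER stress genes and 13 of the 47 cell cycle genes were higher and none lower. Fgf21 was 3.63 ± 0.32 higher under MPy (adjusted p = 1.08e-11), with 7.46, 7.11 and 7.76 in the TAA rats, Cyp4b1 2.68 ± 0.17, Igfbp1 2.78 ± 0.48, Trib3 2.5 ± 0.19, Ddit4 2.41 ± 0.35 and Nupr1 2.35 ± 0.34. Oat and Inmt were 2.65 and 2.55 higher, whereas for MPy against set 1 they differed by 0.04 ± 0.37 and by -0.93 with no call. Among the cell cycle genes Ccnb1 was 1.44 higher (with 7.35, 7.05 and 7.15 in the TAA rats). None of the 42 NRF2 genes was higher and 2 were lower. Gsta3 differed by 0.78 ± 0.46 (adjusted p = 0.468) and Aldh1a1 by -0.52 ± 0.46 (adjusted p = 0.7), which leaves differences of about 1 log2 unit undecided. Among called genes, those lowest against TAA were Cyp2c12 (-1.68), Sds (-1.61), Fabp5 (-1.48), Pklr (-1.36), Elapor1 (-1.33), S100g (-1.32), Ugt2b7 (-1.29) and Hal (-1.11). The calls for Cyp2c12, Sds and Fabp5 were each lost without at least 3 of the 6 arrays, one at a time. Scd (-2.12, adjusted p = 0.0884) and Apoa4 (-1.42, adjusted p = 0.0746) had no call.

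**Figure D5:**
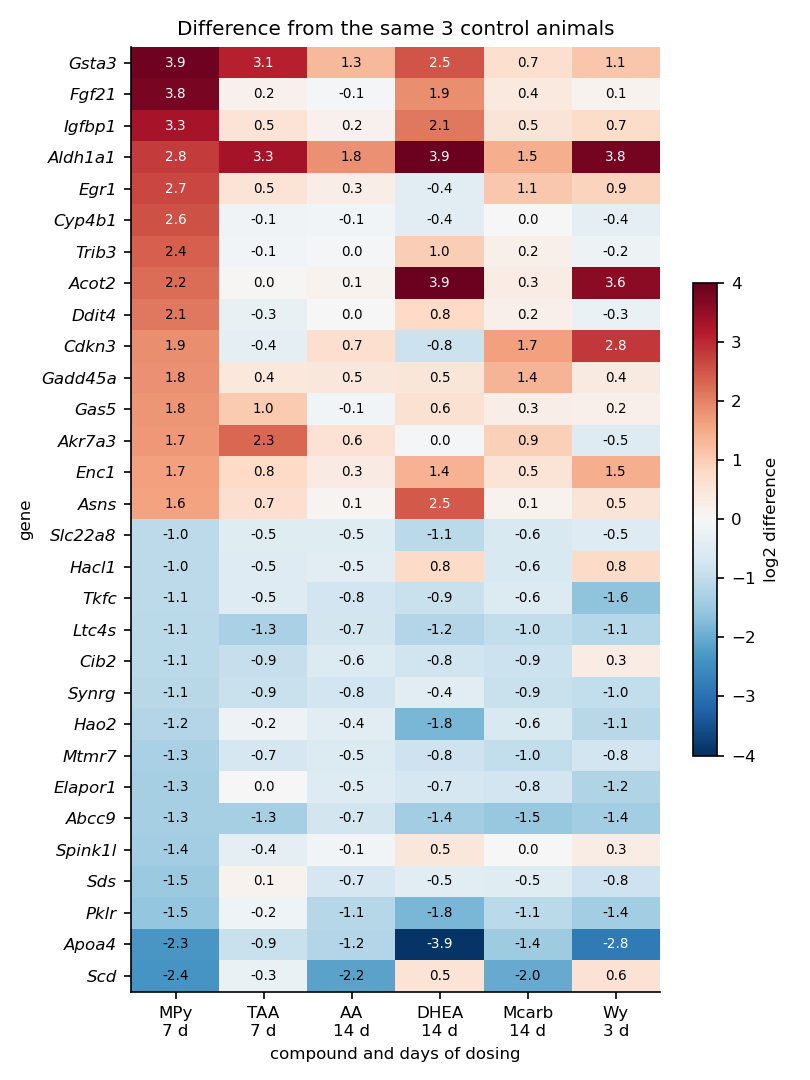
Log2 difference from the same 3 control animals (colour and printed value) for the 15 genes that rose most and the 15 that fell most under MPy (rows) in each of the 6 compounds of control set 1 (columns, with days of dosing). Values in one row share the control animals. Cyp4b1, Trib3 and Ddit4 stand out in the MPy column, while Abcc9, Ltc4s and Synrg are below 0 in every column.

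Against the mean of all 5 other compounds, 780 probe sets differed, and 2.34% of all genes were higher. Fgf21 was 3.30 ± 0.25 higher, Cyp4b1 2.75 ± 0.13, Igfbp1 2.49 ± 0.37, Trib3 2.23 ± 0.15, Egr1 2.19 ± 0.31, Gsta3 2.14 ± 0.35, Ddit4 2.03 ± 0.27 and Mt2A, a metallothionein, 1.60 ± 0.34, with the call lost without MPy replicate 3. Of the ATF4 and ER stress genes 14 were higher and 2 lower. The nearest compound for this group was DHEA, which stood above the same control rats by 1.86 for Fgf21, 1.00 for Trib3, 2.11 for Igfbp1 and 2.46 for Asns, against 3.80, 2.39, 3.31 and 1.60 for MPy. The DHEA value of Fgf21 rests on replicate 3 at 11.02, with the others at 8.16 and 8.22. Of the 47 cell cycle genes 1 was higher than in the 5 compounds together. Of 41 interferon and antigen processing genes 11 were lower than the 5 compounds, among them Oas1a (-1.39), although against set 1 the list held 1 call, Irf9 (down by 0.69). Of all genes 2.76% were lower in the comparison with the 5 compounds. Oas1a stood above the same control rats by 2.22 under AA and 2.62 under Mcarb, and differed by -0.51, -0.28 and -0.62 under TAA, DHEA and Wy with no call.

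Several of the largest falls had counterparts of like size in other compounds of set 1, which share the control rats. Abcc9, the regulatory part of a potassium channel, fell by 1.34 under MPy, and its difference from TAA was -0.02 ± 0.34 and from the 5 compounds -0.07 ± 0.26. Ltc4s, leukotriene C4 synthase, differed from the 5 compounds by -0.02 ± 0.20 and Synrg by -0.30 ± 0.17. These genes stood at 0.56, 0.52 and 0.17 in set 1 relative to the other methylcellulose sets, with no call. Abcc9 read 9.06, 7.85 and 9.07 in the controls, and its call was lost without MPy replicate 2 (adjusted p = 0.114), control replicate 4 (adjusted p = 0.0802) or control replicate 6 (adjusted p = 0.0785), and Ltc4s lost its call without control replicate 6 (-0.87, adjusted p = 0.0705). The other probe sets of Abcc9 gave -0.29 and -0.32 and that of Synrg 0.08. In contrast Spink1l fell by 1.39 (SE 0.22), with 9.79, 10.09 and 9.79 against 11.45, 11.36 and 11.01, and differed from the 5 compounds by -1.44 (adjusted p = 4.08e-08). Hacl1, an enzyme of alpha-oxidation, fell by 1.04 and differed from the 5 compounds by -1.03, with its call against set 1 lost without MPy replicate 2 (-0.96, adjusted p = 0.0804) or control replicate 5 (-0.93, adjusted p = 0.0808).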

How the data were processed

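Deposited series matrix values of 63 Affymetrix RAE230A arrays were used. Per the labels and the study's methods, the authors made CEL files from the scanned images with MAS 5.0, normalised the arrays together by RMA (background correction, quantile normalization and probe summary, in the Bioconductor package affy, version not given in the sources used here) and deposited log2 values. RMA sets all arrays to a common distribution, so a change shared by most genes would not be seen, and dim probe sets understate changes. No depth applies to arrays, and 3 arrays per group limit the precision. The median SE of a difference between MPy and set 1 was 0.0954 log2 units.

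Of 15866 probe sets 12783 had 1 gene symbol, 312 several and 2771 none. For each of 10411 genes the brightest probe set, by its average across arrays, stood for the gene. The means of all 21 groups were estimated together from the 63 arrays in R 4.3.3 (limma 3.58.1), with 42 residual degrees of freedom, empirical Bayes moderation and Benjamini-Hochberg adjustment over all probe sets. Genes were called at an adjusted p under 0.05. The SE is that of this fit. The fit was tested on simulated data. An exact permutation test of 3 against 3 animals cannot go below 0.1. The labels name separate animals, 3 per group. Genes named are the 15 largest rises and falls without overlap, up to 6 called members of each of 43 lists (1186 of 1481 genes measured), members of the P450, marker and signature lists, and the 8 highest and 8 lowest called genes of the 2 comparisons between compounds. Named beyond this rule, after their values were seen, were further members of the ATF4 and ER stress list and Klf6, Mki67, Cdk1, Pck2, Pygl, Ivd, Otc, Phb2, Clpp, Nqo1, Hmox1, Gclc and Gclm. The members and lists were chosen with earlier results of these data known. Lists were not given a set test. Promoter sequences came from RefSeq (GRCr8), of which the 250 bases before the start were used. Alternatives covered the arrays in the fit, array weights, the eBayes prior, normalization, a filter on dim probe sets, other methylcellulose controls, the threshold, the probe set of a gene and leaving out each array.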

Additional observations from a re-analysis of the deposited data

How the results depend on the processing

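Each result rests on 3 livers a group, chosen by the study, and on deposited values that RMA had already levelled. For MPy against set 1 the 1002 called probe sets became 1899 with array weights, 1730 with the 12 methylcellulose livers pooled, 1646, 2201 and 2046 with set 2, 5 or 6 as the control and 541 at an adjusted p under 0.01, and ranged from 652 to 742 with 1 array left out. For MPy against TAA 335 became 809 with array weights and ranged from 164 to 263 with 1 array left out (164 without TAA replicate 3, 184 without MPy replicate 2, 188 without MPy replicate 1). For MPy against the 5 other compounds 780 became 1458 with array weights and ranged from 397 to 936 with 1 array left out, and fell to 421, 397 and 473 without MPy replicates 1, 2 and 3. The causes were not tested. The other settings tried kept these 3 counts within 1.5 times.

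Set 1 against the other methylcellulose sets, with 249 calls, was recomputed with alternatives chosen after seeing the data. It gave 5 calls on those 12 arrays alone, 1756 with array weights, and from 19 (without control replicate 4) to 542 (without MC_set5 replicate 7) with 1 array left out.

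Of the 141 genes named by rule for MPy against set 1, 60 kept their call under all 19 settings and 72 under each of the 6 fits with 1 array left out. Of the 15 rises 13 and of the 15 falls 7 kept it throughout. The directions that turned were Gpam (-0.078 with the 12 livers pooled, -0.41 with set 2, -0.44 with set 6), Vim (0.0691 with set 2, 0.19 with set 5), Tie1 (0.0051 with set 5, 0.0165 with set 6), Col14a1 (0.0367 with set 5), Casp8 (-0.0635 with set 6), Sdha (0.0483 with set 6) and Ghr (0.14 on its most variable probe set).

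No paired analysis was possible for MPy against set 1 because the groups share no replicate number. Replicate numbers are shared with TAA and the other compounds. Same-numbered MPy and TAA arrays correlated in their deviations from the group means at -0.233 to 0.0381, which is 3 pairs and too few to decide whether the numbers pair the animals. Among the 18 arrays of MPy and the 5 other compounds, 45 same-numbered pairs correlated at -0.347 to 0.255, with 11 above 0.1. The 90 pairs with different numbers lay at -0.293 to 0.348. A fit with the replicate number as a block (replicate block) gave 240 calls for MPy against TAA on 6 arrays and 533 for MPy against the 5 compounds on 18 arrays.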

Other observations

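Of 35 measured proteasome subunits 16 were lower than in the 5 other compounds, where 2.76% of all genes were, while against set 1 the list had 1 call, Psmf1 (down by 0.46). Against TAA alone 0 of the 35 were called in either direction, with a median of -0.04. Probe sets without a single gene symbol also moved: 4 rose and 4 fell by over 1 log2 unit, the largest rise being 3.22 ± 0.24 and the largest fall -1.36 ± 0.36.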
